A study of Homo sapiens with 9 samples.

Results

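HOX genes were followed in 9 RNA-seq libraries of HEK293T, a line of transformed human embryonic kidney cells. The members were the rows of the deposited gene table whose symbol is HOX followed by a cluster letter (A, B, C or D) and a paralogue number, which gave 38 of 17083 genes. These were 11 genes of HOXA, 9 of HOXB, 9 of HOXC and 9 of HOXD. The cells were labelled wild type in every library, and 3 groups of 3 biological replicates were compared. Vector cells overexpressed an empty FLAG vector, PLK2 cells overexpressed FLAG-tagged PLK2, and PLK2(D223N) cells overexpressed FLAG-tagged PLK2 with a substitution in its kinase domain, so all groups shared the line and a FLAG construct. One cell line was used, the proteins and kinase activity were not measured here, and the comparisons ask which transcripts follow the kinase and whether the substituted form moves them too.

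HOX genes encode homeodomain transcription factors that set position along the body axis. They lie in 4 clusters in which the order of the genes follows the order of their expression from anterior (low paralogue number) to posterior (high paralogue number), and genes with the same number in different clusters are paralogues. HOX proteins bind DNA together with the PBX, MEIS and PKNOX cofactors, and the clusters are held off by Polycomb complexes and kept on by trithorax/MLL complexes. In the embryonic kidney, paralogues of group 11 are needed for outgrowth of the ureteric bud.

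Library totals ran from 14288165 to 16510186 estimated counts. PLK2 RNA, which checks the labels, stood at 3.33, 4.09 and 2.83 CPM (library-scaled counts, with TMM scaling) in Vector, at 13980, 10680 and 12420 CPM in PLK2(D223N), and at 23500, 26240 and 21490 CPM in PLK2 libraries. The level of the construct RNA therefore was higher in the PLK2 than in the PLK2(D223N) group, with a log2 fold change of 0.94 and an adjusted p of 4.96e-05 in edgeR, and its part in the comparisons below was not tested. Vector replicate 1 stood apart. Its mean chi-square per gene was 18.1 against replicate 2 and 11 against replicate 3, whereas the other 7 within-group pairs lay between 1.64 and 2.83. Of the markers of the labelled epithelial type, KRT18 (69.9 TPM, a library share scaled for transcript length) and KRT8 (23.6 TPM) were plain in Vector, EPCAM and CDH1 were at 2.83 and 1.41 TPM, and GRHL2, ESRP1 and OVOL1 were at or below 0.053 TPM. The summed level of 7 fibroblast markers was at most 5.92 TPM, that of 5 myeloid markers at most 1.69 TPM and that of 6 endothelial markers at most 0.37 TPM in any library. The 7 neuronal markers summed to 11.3 to 12.4 TPM in Vector, 11.9 to 15.0 TPM in PLK2(D223N) and 12.5 to 13.3 TPM in PLK2 libraries.

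Promoter sequence is shown for the member that changed with PLK2 (HOXA9), for another HOXA gene with one of the smallest p-values (HOXA13), for a member of similar read count whose change did not pass the test (HOXD13), and for HOXC4, whose start site is the same as that of HOXC5 in the reference. Each run is the 250 bases before a RefSeq start site on build GRCh38.p14, written 5′ to 3′ on the gene's strand, with the CG dinucleotides in capitals. Windows were found for 19 of the 38 members.
HOXA9: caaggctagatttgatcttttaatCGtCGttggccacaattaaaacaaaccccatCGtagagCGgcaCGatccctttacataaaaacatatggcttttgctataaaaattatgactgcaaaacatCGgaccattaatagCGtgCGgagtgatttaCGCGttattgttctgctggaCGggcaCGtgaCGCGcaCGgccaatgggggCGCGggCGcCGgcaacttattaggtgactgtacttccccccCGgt
HOXA13: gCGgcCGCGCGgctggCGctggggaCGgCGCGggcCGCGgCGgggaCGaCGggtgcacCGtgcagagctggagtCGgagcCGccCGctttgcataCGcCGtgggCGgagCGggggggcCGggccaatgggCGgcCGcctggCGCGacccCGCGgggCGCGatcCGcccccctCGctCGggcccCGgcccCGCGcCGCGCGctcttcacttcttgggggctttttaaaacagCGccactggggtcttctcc
HOXD13: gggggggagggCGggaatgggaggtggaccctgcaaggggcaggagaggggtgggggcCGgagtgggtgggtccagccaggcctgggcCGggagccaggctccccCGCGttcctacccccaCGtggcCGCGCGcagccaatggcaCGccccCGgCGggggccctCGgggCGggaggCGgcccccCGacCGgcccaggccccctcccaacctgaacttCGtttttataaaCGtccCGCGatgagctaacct
HOXC4: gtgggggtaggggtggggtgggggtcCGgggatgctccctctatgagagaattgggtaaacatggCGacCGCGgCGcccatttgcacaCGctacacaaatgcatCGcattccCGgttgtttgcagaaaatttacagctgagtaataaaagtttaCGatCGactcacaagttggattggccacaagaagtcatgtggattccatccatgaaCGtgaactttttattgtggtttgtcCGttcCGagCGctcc
HOXA9 is at chr7:27165538-27165787 on the minus strand and holds 20 CG dinucleotides at a GC content of 48.8%. HOXA13 is at chr7:27200092-27200341 on the minus strand, with 40 CG dinucleotides and a GC content of 78.0%. HOXD13 is at chr2:176092471-176092720 on the plus strand, with 21 CG dinucleotides and a GC content of 74.0%. HOXC4 is at chr12:54016638-54016887 on the plus strand, with 14 CG dinucleotides and a GC content of 50.8%. GC content was thus lower in HOXA9 and HOXC4 than in HOXA13 and HOXD13.

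Over the whole windows of 300 bases (250 before and 50 after the start site), 25 distinct HOX windows held a median of 23 CG dinucleotides, against 14 over 34943 windows of all genes, at a similar median GC content (58.0% against 58.7%). The windows describe HOXA and HOXD almost alone, since none was found for HOXB, 1 window shared by HOXC4 and HOXC5 stood for HOXC, and 7 were start sites of HOXA3. Motifs were searched on both strands. The TATA-box letters TATAAA lay in 5 of the 25 windows (20%, against 11.6% of all windows). These were the windows of HOXA9 and HOXD13, each window of HOXA10, which thus entered more than once, and a window of HOXA3. The homeodomain core TAATTA lay in 2 (8.0% against 4.85%) and the PBX-HOX composite letters TGATTNAT in 2 (8.0% against 2.82%). These are matches of letters in a reference and describe no binding in these cells.

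Vector cells transcribed members of all 4 clusters, with a posterior weight. TPM, which is per transcript length, was used to set genes beside each other. The summed HOX level was 730 ± 6.10 TPM (SD, n = 3 here and below), of which HOXA held 363 ± 3.19 TPM (49.8%), HOXD 153 ± 2.72 TPM (21.0%), HOXB 138 ± 3.47 TPM (18.9%) and HOXC 75.5 ± 3.05 TPM (10.3%). Without correction for length, as CPM, the shares were 48.1%, 21.6%, 21.1% and 9.18%, so HOXD and HOXB stood closer together. In all, 35 of the 38 members had a mean above 1 TPM and 19 a mean above 10 TPM. The median member stood at 10.003 TPM, close to the 9.55 TPM of the median gene of the table.

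**Figure D1:**
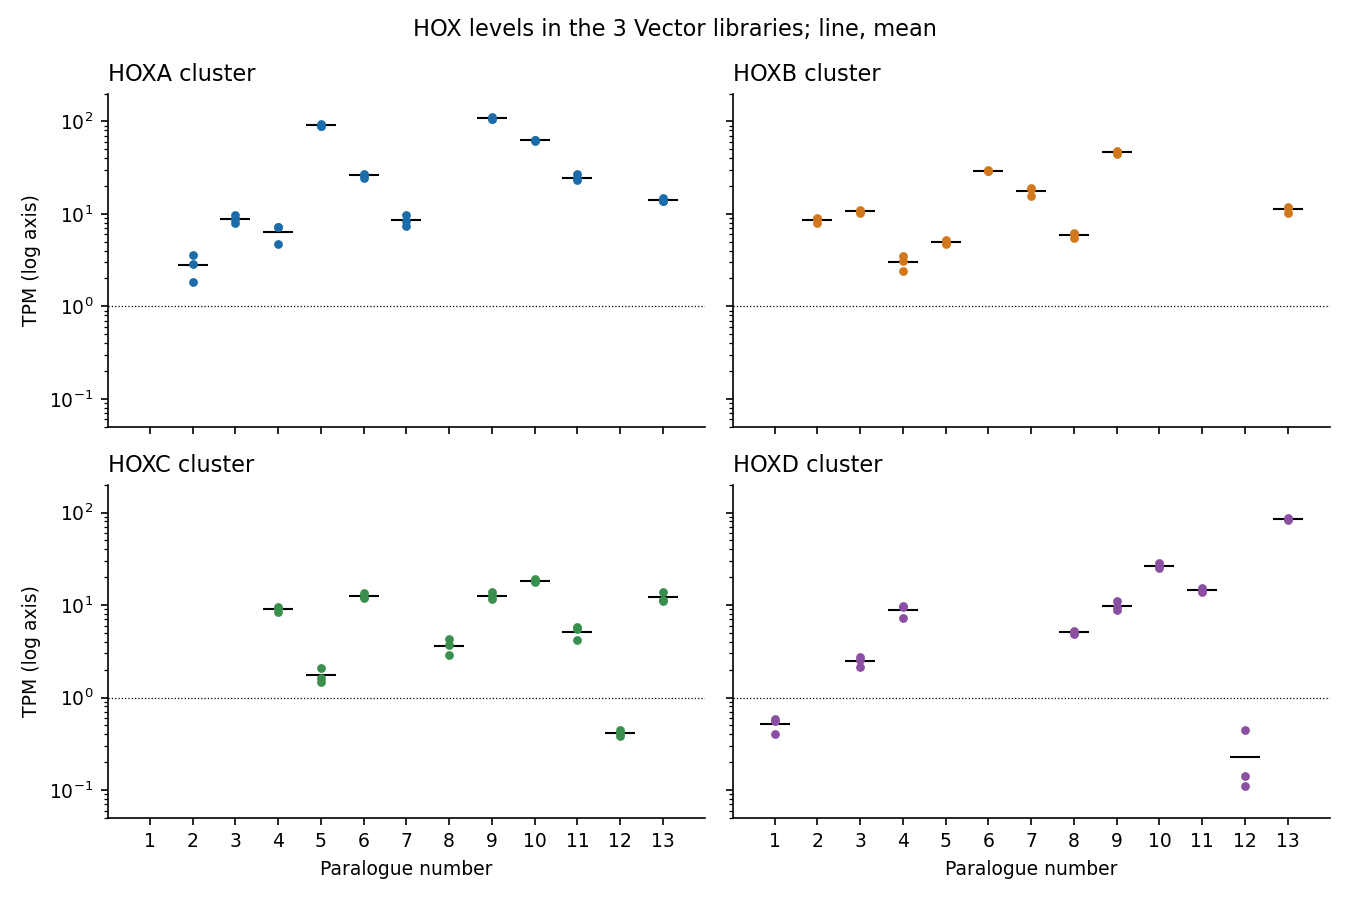
Level of 37 HOX genes in the 3 Vector libraries (points, TPM on a log axis) by cluster and paralogue number, with the mean as a line and a dotted line at 1 TPM. HOXA9, HOXA5 and HOXD13 are the highest members, and HOXD1, HOXC12 and HOXD12 lie below 1 TPM.

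HOXA9, a posterior factor best known from haematopoietic stem cells and leukaemia, was the highest member at 112, 106 and 106 TPM in the 3 Vector libraries. HOXA5, known from lung and axial skeleton patterning, followed at 89.1, 93.9 and 89.5 TPM, and HOXD13, the most posterior gene of its cluster and a regulator of digit formation, at 86.5, 84.0 and 85.1 TPM. The libraries of these 3 genes did not overlap with one another. HOXA10, needed in uterus and limb, came next at 63.3, 62.9 and 61.5 TPM, and then HOXB9 at 47.5, 47.1 and 44.7 TPM and HOXB6 at 28.9, 29.9 and 29.3 TPM. These 6 levels formed an order without overlap between neighbours. The 5 highest members together held 53.9% of the HOX level. Below them the order was less sharp, and over the whole list 13 of 37 neighbouring pairs had libraries that did not overlap.

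Within a cluster, the level was spread unevenly. HOXD13 alone made up 55.6% of HOXD. Its neighbours HOXD10 (25.3, 28.4 and 26.4 TPM) and HOXD11 (14.2, 13.95 and 15.3 TPM), which act with it in the limb, were lower, and HOXD12 between HOXD13 and HOXD11 was at 0.14, 0.11 and 0.44 TPM. HOXD12 was thus near 0 between transcribed neighbours in all 3 libraries. In HOXB, HOXB9 made up 33.7%, followed by HOXB6 and by HOXB7 at 19.1, 18.4 and 15.5 TPM. In HOXA, HOXA9 made up 29.8% and HOXA5 was high between HOXA4 and HOXA6. HOXC had no member as high, and its first 3 were HOXC10 (18.9, 18.2 and 17.7 TPM), HOXC6 (12.3, 11.95 and 13.5 TPM) and HOXC9 (13.8, 11.5 and 12.4 TPM). The libraries of HOXC6 and HOXC9 overlapped, so those levels were not ordered.

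By paralogue number, group 9 held the largest sum at 177 ± 4.85 TPM (24.2% of the HOX level, 4 members), followed by group 13 at 123 ± 2.97 TPM (16.8%, 4 members), group 10 at 108 ± 2.00 TPM (14.7%, 3 members) and group 5 at 97.5 ± 2.26 TPM (13.4%, 3 members). Group 11 came to 44.3 ± 2.17 TPM (6.07%). Groups 1 to 3 held 6.03% over 7 members, groups 4 to 8 32.0% over 15 members and groups 9 to 13 62.0% over 16 members. Group 12 was the exception among the posterior groups, at 0.64 ± 0.19 TPM over HOXC12 and HOXD12 (0.0878%). The lowest members outside it were HOXD1 at 0.58, 0.40 and 0.56 TPM and HOXC5 with a mean of 1.74 TPM. HOXD1 and HOXD12 had 79 and 38 counts in all 9 libraries together and were too low to test. The remaining 36 members entered the tests.

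With PLK2, most HOX transcripts were lower than in Vector, by small amounts, and HOXA9 was the member whose change passed the test. Of the 36 members tested, 33 had a log2 fold change below 0, against 51.1% of the 12924 genes tested, and the median was -0.16 against 0.00 for all genes (-0.004 before rounding). The test called 1 member lower and none higher, beside 0.031% of all genes called lower, 0.48% called higher and 0.511% called in either direction. In 12 members every PLK2 library lay below every Vector library (33.3% of the members, against 10.1% of all genes), and in none did they all lie above (10% of all genes). At an unadjusted p below 0.05, 10 members were lower (6.81% of all genes) and 0 higher (9.56% of all genes). HOX members share clusters, libraries and the common scaling, so their number is not a number of independent observations.

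HOXA9 stood at 116, 101 and 104 CPM in Vector and at 82.5, 84.0 and 80.7 CPM in PLK2 libraries. Every PLK2 library was below every Vector library, and Vector replicate 1 was the highest. The change was -0.38 on the log2 scale (SE 0.06, adjusted p = 0.0105 in edgeR), a decrease of 23.2%. Without Vector replicate 1 it was -0.32 (adjusted p = 6.84e-06). With only the 6 libraries compared the size was -0.38 and the adjusted p 0.0544. Without PLK2 replicate 1, 2 or 3 the sizes were -0.38, -0.40 and -0.37 and the adjusted p 0.0689, 0.0798 and 0.0815. The call was thus lost without any 1 of the PLK2 libraries. In each of the fits that lost it, 0 of all genes tested were called lower.

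The 3 members with the next smallest p were HOXA10, HOXA13 and HOXB9. HOXA10 stood at 83.1, 77.1 and 77.0 CPM in Vector and at 66.9, 67.9 and 66.0 CPM in PLK2 libraries, without overlap, and its change was -0.24 (SE 0.06, adjusted p = 0.0668 in edgeR). HOXA13, which patterns the distal limb and the urogenital tract, stood at 38.8, 38.2 and 36.7 CPM in Vector and at 33.2, 30.1 and 31.7 CPM with PLK2 (-0.26, SE 0.06, adjusted p = 0.0792 in edgeR). HOXB9 stood at 63.7, 59.0 and 57.1 CPM in Vector and at 48.2, 47.9 and 54.0 CPM with PLK2 (-0.26, SE 0.07, adjusted p = 0.0924 in edgeR). None of these 3 passed the threshold, although their groups did not overlap. Without Vector replicate 1, HOXA5, HOXA9, HOXA10, HOXA13 and HOXB9 were called lower, 5 of 37 members tested beside 0.399% of all genes. Without Vector replicate 2 it was 8 members beside 3.46% of all genes. Without PLK2 replicate 1, 2 or 3 it was 0 members, and 0 of all genes tested were called lower in those fits.

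**Figure D2:**
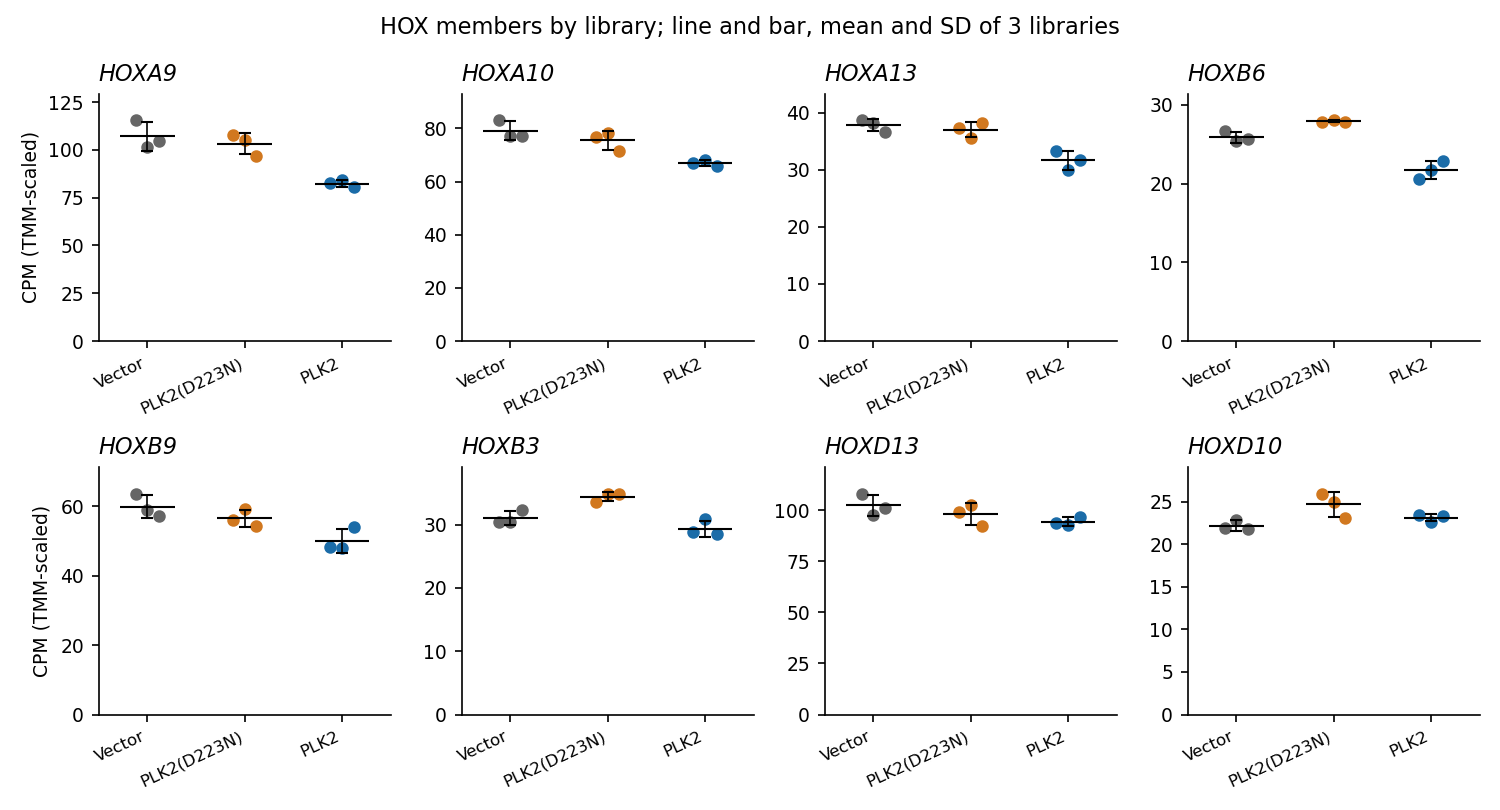
TMM-scaled CPM of 8 HOX members in each library (points), with the mean and SD of the 3 libraries of a group. The PLK2 libraries of HOXA9, HOXA10, HOXA13, HOXB6 and HOXB9 lie below all 6 other libraries, while those of HOXD10 and HOXB3 overlap with Vector. Those of HOXD13 lie below Vector and overlap with PLK2(D223N).

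HOXA5 stood at 71.0, 69.6 and 68.0 CPM in Vector and at 58.3, 58.5 and 63.6 CPM with PLK2 (-0.21, SE 0.06, adjusted p = 0.107 in edgeR). HOXB6, which has roles in axial skeleton and blood progenitors, stood at 26.7, 25.4 and 25.6 CPM in Vector and at 20.6, 21.8 and 22.8 CPM with PLK2 (-0.25, SE 0.07, adjusted p = 0.102 in edgeR). Both were lower in every PLK2 library without passing the test. HOXD8, a low member, went from 5.05, 4.09 and 4.12 CPM to 3.36, 3.53 and 3.39 CPM (-0.37, SE 0.14, adjusted p = 0.213 in edgeR). Its groups did not overlap either, but its interval was wide.

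The HOXD median lay nearer 0 than those of the other clusters, although HOXD8 did not. HOXD13, at 108, 97.6 and 101 CPM in Vector, had read counts close to those of HOXA9 and stood at 93.6, 92.8 and 96.7 CPM with PLK2. Every PLK2 library of HOXD13 thus lay below every Vector library, by a narrow gap (96.7 against 97.6 CPM). Its change was -0.12 (SE 0.06, 95% interval -0.24 to 0.01, adjusted p = 0.327 in edgeR), against an interval of -0.51 to -0.25 for HOXA9. HOXD10 stood at 21.9, 22.9 and 21.8 CPM in Vector and at 23.4, 22.6 and 23.3 CPM with PLK2 (0.06, 95% interval -0.09 to 0.21), and its groups overlapped. HOXD11 was at -0.12 (95% interval -0.32 to 0.08). The median change was -0.24 over 11 HOXA members (11 below 0), -0.16 over 9 HOXB members (8 below 0), -0.16 over 9 HOXC members (9 below 0) and -0.04 over 7 HOXD members (5 below 0). Whether the clusters differ from each other was not tested.

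In HOXC no member passed the test. HOXC10 stood at 18.5, 16.6 and 16.5 CPM in Vector, at 18.6, 19.6 and 15.5 CPM in PLK2(D223N) and at 15.3, 14.5 and 16.4 CPM in PLK2 libraries (-0.16 in PLK2 vs Vector, 95% interval -0.36 to 0.04). HOXC6, which acts in the thoracic axis, stood at 10.8, 9.92 and 11.003 CPM in Vector and at 9.88, 9.10 and 9.28 CPM with PLK2 (-0.17, 95% interval -0.38 to 0.04). In both genes the PLK2 libraries lay just below those of Vector, with gaps smaller than the spread within Vector. HOXC9 overlapped between the groups, at 9.39, 7.28 and 8.05 CPM in Vector and 8.36, 7.12 and 7.96 CPM with PLK2 (-0.08, 95% interval -0.32 to 0.16). HOXB7 of the HOXB cluster also overlapped, at 11.8, 10.5 and 9.10 CPM in Vector and 9.88, 8.85 and 8.40 CPM with PLK2 (-0.21, 95% interval -0.44 to 0.02). The 3 members with an estimate above 0 were HOXB4, HOXD9 and HOXD10, and the highest of these was 0.09 for HOXD9 (95% interval -0.15 to 0.32), whose groups overlapped.

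Summed over a cluster, HOXA stood at 397, 367 and 370 CPM in Vector and at 311, 317 and 313 CPM with PLK2, or 83.0% of the Vector mean. HOXB went from 173, 163 and 162 CPM to 141, 145 and 150 CPM (87.3%), HOXC from 78.8, 66.9 and 71.1 CPM to 66.3, 62.0 and 66.5 CPM (89.9%), and HOXD from 172, 167 and 170 CPM to 161, 157 and 164 CPM (94.9%). All 4 sums in CPM were lower in every PLK2 library than in any Vector library. In TPM the HOXD sums overlapped, at 150.2, 155.4 and 154.3 TPM in Vector and 144.9, 139.5 and 151.3 TPM with PLK2. Over all 38 members the sum was 821, 764 and 773 CPM in Vector and 679, 681 and 694 CPM with PLK2, or 87.1%. In bulk RNA, fewer cells with a transcript and less of it per cell cannot be told apart.

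**Figure D3:**
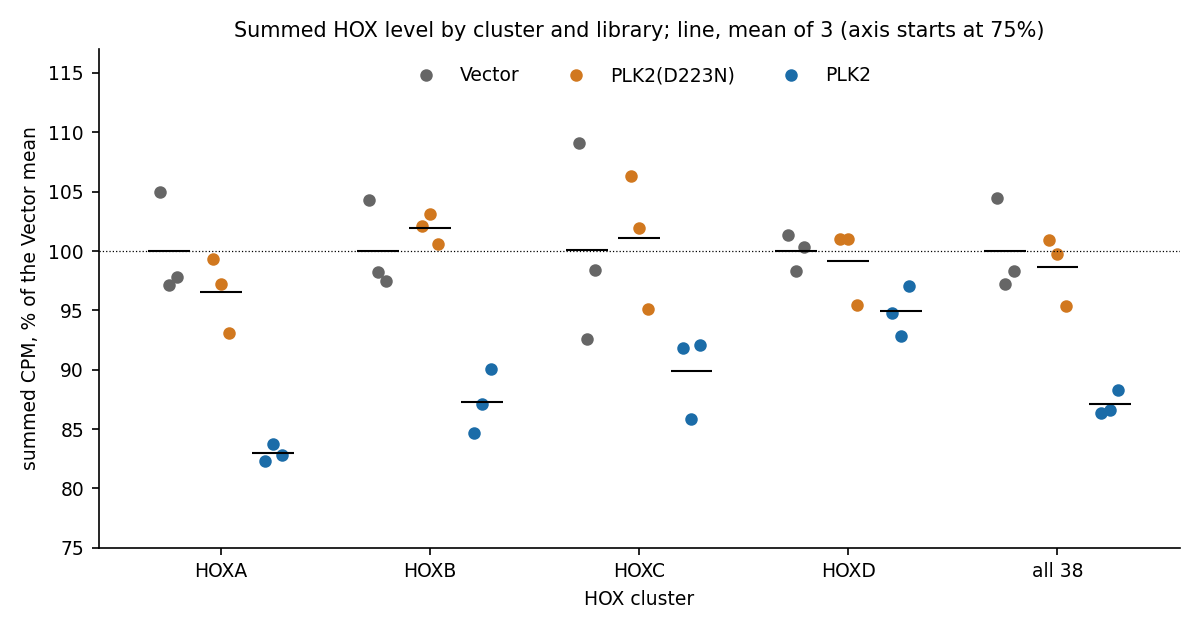
Summed TMM-scaled CPM of each HOX cluster and of all 38 members in each library, in percent of the Vector mean (points, with the mean of 3 libraries as a line; the axis starts at 75%). PLK2 means are at 83.0% for HOXA, 87.3% for HOXB, 89.9% for HOXC and 94.9% for HOXD, and PLK2(D223N) means are between 96.6% and 102%.

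The members most counted carried the narrowest intervals. Over the 12 members with the highest mean count (269 to 1566 per library), whose standard errors were 0.06 to 0.10, the median change with PLK2 was -0.23, 11 were below 0 and 7 had an unadjusted p below 0.05. In the 12 members in the middle it was -0.14, with 11 below 0 and 2 at that p. In the lowest 12 (9 to 129 counts, standard errors 0.11 to 0.43) it was -0.12, with 11 below 0 and 1 at that p. HOXC12, at 0.77, 0.62 and 0.68 CPM in Vector and 0.63, 0.26 and 0.25 CPM with PLK2, had the lowest estimate, -0.86, with a 95% interval of -1.76 to 0.05 that includes 0. By paralogue number the medians were -0.06 for groups 1 to 3 (6 tested), -0.17 for groups 4 to 8 (15 tested) and -0.16 for groups 9 to 13 (15 tested).

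With PLK2(D223N), no HOX member passed the test against Vector. The same Vector libraries served as controls, so the 2 comparisons are not independent. edgeR called 0 members, beside 0.0232% of all genes, and the DESeq2 Wald test called 0 as well. The median change was -0.03 against 0.01 for all genes, with 19 of 36 members below 0 (47.3% of all genes). At an unadjusted p below 0.05 there were 2 members higher (5.22% of all genes) and 0 lower (3.3%). All PLK2(D223N) libraries lay above the Vector libraries in 3 members (6.66% of all genes) and below them in 2 (7.2%), shares close to those of all genes.

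The 2 higher members at that p were HOXB3 and HOXD10. HOXB3, which acts in the hindbrain, stood at 30.4, 30.4 and 32.3 CPM in Vector and at 33.6, 34.9 and 34.8 CPM with PLK2(D223N), without overlap (0.15, SE 0.06, adjusted p = 0.573 in edgeR). HOXD10 stood at 26.0, 24.998 and 23.0 CPM with PLK2(D223N), above its Vector libraries (0.15, SE 0.07, adjusted p = 0.573 in edgeR). The next by p was HOXD8, at 3.66, 3.83 and 3.56 CPM (-0.27, SE 0.13, adjusted p = 0.574 in edgeR). None of these passed the threshold. HOXA9, at 108, 105 and 96.9 CPM with PLK2(D223N), overlapped with Vector, and its change was -0.05 with a 95% interval of -0.19 to 0.08.

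**Figure D4:**
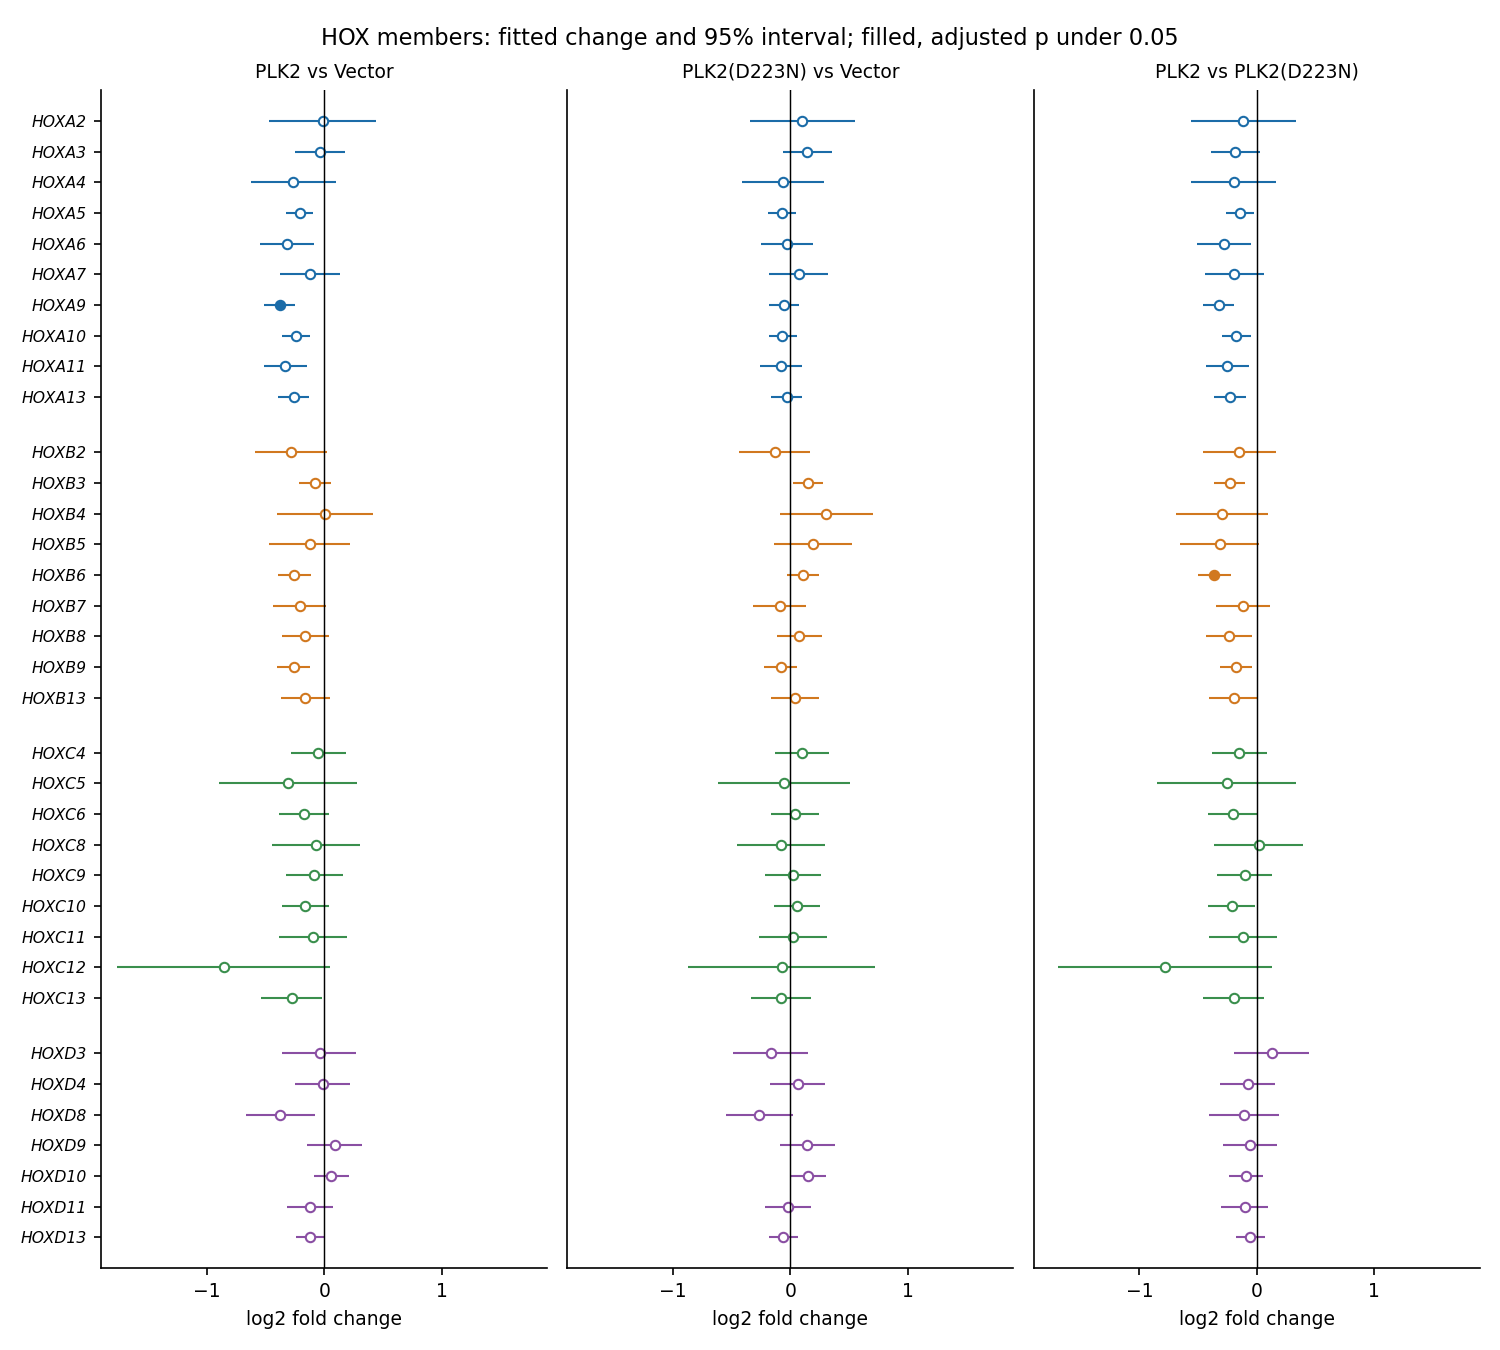
Fitted log2 fold change of 35 tested HOX members with its 95% interval in the 3 comparisons, by cluster and paralogue number; filled points have an adjusted p below 0.05. HOXA9 is filled in PLK2 vs Vector and HOXB6 in PLK2 vs PLK2(D223N), and most intervals in the middle panel span 0.

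PLK2 was set directly against PLK2(D223N), with the PLK2 libraries of the first comparison used again. HOXB6 was lower with PLK2 and was the only gene of all 12924 called lower (0.00774%), while 0.162% were called in either direction. HOXB6 stood at 27.9, 28.1 and 27.8 CPM in PLK2(D223N) and at 20.6, 21.8 and 22.8 CPM in PLK2 libraries, without overlap. The change was -0.36 (SE 0.07, adjusted p = 0.0381 in edgeR), a decrease of 22.2%. In this gene the PLK2(D223N) libraries also lay above all Vector libraries (0.11, SE 0.06, adjusted p = 0.593 in edgeR), and the PLK2 libraries below them. The call did not hold without Vector replicate 3 (adjusted p = 0.0763 in edgeR). It was also lost without PLK2(D223N) replicate 1, 2 or 3 (0.201, 0.25 and 0.217) and without PLK2 replicate 1, 2 or 3 (0.309, 0.224 and 0.0987). Sizes ran from -0.40 to -0.32 in these fits. In each of them 0 of all genes tested were called lower, and 9 to 18 were called higher. Without Vector replicate 1, HOXB6 was called at an adjusted p of 0.000243. By limma on log2(TPM + 1) HOXB6 was at -0.40 with an adjusted p of 0.063, and HOXA9 was the member called in its place (-0.37, adjusted p = 0.0281).

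HOXA9 was lower by 0.325 on the log2 scale in PLK2 than in PLK2(D223N) libraries (SE 0.06, adjusted p = 0.0566 in edgeR), which did not pass the threshold, although the libraries did not overlap. HOXB3 followed at -0.23 (SE 0.06, adjusted p = 0.328 in edgeR), with 28.8, 30.8 and 28.5 CPM in PLK2 below all 3 PLK2(D223N) libraries, and HOXA13 at -0.23 (SE 0.06, adjusted p = 0.353 in edgeR) against 37.4, 35.6 and 38.2 CPM in PLK2(D223N). In all, 34 of 36 members were below 0 (52.1% of all genes), with a median of -0.18 against 0.00 for all genes (-0.005 before rounding). In 12 members all PLK2 libraries lay below all PLK2(D223N) libraries (9.49% of all genes) and in 0 above (11%). At an unadjusted p below 0.05, 11 members were lower (3.06% of all genes) and 0 higher (2.98%). The HOXD median was -0.08, with HOXD13 at -0.05 (95% interval -0.18 to 0.07), while the HOXA, HOXB and HOXC medians were -0.19, -0.23 and -0.20.

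The Vector libraries, which are not part of this contrast, enter its estimate of the spread. When Vector replicate 1 was left out, 7 of 37 members were called lower in PLK2 than in PLK2(D223N), beside 0.522% of all genes. In a fit of the 6 libraries of these groups alone, 7 of 35 members were called lower, beside 0.999% of all genes. These were in both cases HOXA9, HOXA10, HOXA11, HOXA13, HOXB3, HOXB6 and HOXB9. HOXA9 then had an adjusted p of 3.63e-07 and 6.51e-09 at a size of -0.325.

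Over all 9 libraries, the 3 PLK2 libraries were the lowest 3 in CPM in 9 members, namely HOXA5, HOXA6, HOXA9, HOXA10, HOXA11, HOXA13, HOXB6, HOXB9 and HOXD8. This was so for 3.29% of all genes tested. In 0 members were they the highest 3, against 4.79% of all genes. HOXA6 and HOXA11 were not chosen by the naming rule and are given because they complete this count. HOXA6 had 10.7, 8.95 and 9.96 CPM in Vector, 10.5, 9.57 and 8.97 CPM in PLK2(D223N), and 8.23, 8.53 and 7.15 CPM in PLK2 libraries. HOXA11, of the paralogue group needed in kidney, had 37.1, 31.6 and 30.4 CPM, 33.4, 30.6 and 30.0 CPM, and 24.9, 28.7 and 25.3 CPM in the same order. In PLK2 vs Vector their adjusted p was 0.193 and 0.1 in edgeR. The members differed in TPM. There HOXD8 overlapped, at 3.41, 4.16 and 4.22 TPM in PLK2 and 4.28, 4.77 and 3.96 TPM in PLK2(D223N) libraries. HOXB8 and HOXC6 had their lowest 3 libraries in PLK2 in TPM but not in CPM.

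HOXA9, HOXA10, HOXA11 and HOXA13 are neighbours in the posterior part of HOXA, on the minus strand of chromosome 7, and HOXB6 and HOXB9 lie on the minus strand of chromosome 17. In GENCODE release 29 on GRCh38, HOXA9 spans 27162435 to 27175180 on chromosome 7. It shares 15.9% of its exon bases with another gene of the same strand and has 13.9% overlapped by a gene of the other strand. HOXB6 spans 48595751 to 48604992 on chromosome 17, and 16.6% of its exon bases are shared with HOXB3. A further gene of the other strand, HOXB-AS3, overlaps 16.3% of them. Over the members, 18 of 38 share exon bases with another gene of the same strand and 19 are overlapped by an antisense gene. Whether counting used strand is not given in the sources used here, so reads of a member and of its antisense partner cannot be told apart in these genes. HOXC4 and HOXC6 were the only members with fractional counts (in 7 of 9 libraries), and their sum was whole in all 9 (within 0.011). HOXC4 held 37.7% to 44.8% of that sum, so the separate values of HOXC4 and HOXC6 are less certain than their sum.

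HOX transcripts had a GC content of 55.2% at the median, against 49.8% over the genes tested. Once each library was corrected for its trends with GC content and transcript length, the median change with PLK2 was -0.11, with 30 of 36 members below 0. The median of all genes was then -0.02, so the HOX median stood nearer to it than without that step (-0.16 against -0.004). The fit called 6 members lower (HOXA5, HOXA9, HOXA10, HOXA11, HOXA13 and HOXB9), beside 0.843% of all genes. The calls over all genes then split into 217 higher and 109 lower, against 62 and 4 without that step. For PLK2 against PLK2(D223N) the HOX median became -0.15, against -0.002 for all genes. There HOXA9 and HOXB6 were called, beside 0.0696% of all genes.

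Genes that act with HOX proteins or on the clusters were read from lists, and no tested member of any list was called in any of the 3 comparisons. At an unadjusted p the 2 smallest in each list with PLK2 are given as values. Among 12 cofactors of the TALE class, PKNOX2 was at -0.16 (SE 0.10) and PKNOX1 at -0.07 (SE 0.06), and the list's median was 0.00 (0.002 before rounding). Among 38 Polycomb subunits, which hold HOX clusters silent, 15 were below 0 and the median was 0.03. CBX2 and CBX8, chromodomain subunits of Polycomb repressive complex 1, were at -0.23 (SE 0.06) and -0.32 (SE 0.09), with adjusted p of 0.129 and 0.135 in edgeR. Among 24 trithorax and MLL genes the median was 0.04 (9 below 0), with AFF4 at 0.20 (SE 0.07) and the H3K27 demethylase KDM6A at 0.19 (SE 0.07).

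Among 12 CTCF and cohesin genes, which fold the clusters into domains, 10 were above 0 and the median was 0.13, with STAG2 at 0.22 (SE 0.07) and SMC3 at 0.27 (SE 0.09). Among 16 tested retinoic acid and CDX genes, which act upstream of HOX genes in the embryo, the median was -0.06, with CDX2 at -0.19 (SE 0.08) and RXRA at -0.13 (SE 0.07). In 12 tested ParaHox and other HOX-linked homeobox genes it was -0.07 (8 below 0), with DLX6 at -0.28 (SE 0.13) and DLX5 at -0.35 (SE 0.16). Among 20 tested genes listed as flanking the clusters, 9 were below 0 and the median was 0.00 (0.002 before rounding). ATF2, a flank of HOXD, was at 0.34 (SE 0.08, adjusted p = 0.0792 in edgeR) and TAX1BP1, a flank of HOXA, at 0.18 (SE 0.07). Of 19 tested genes reported as HOX targets, 8 were below 0 and the median was 0.01, with the receptor EPHB3 at -0.80 (SE 0.24, adjusted p = 0.143 in edgeR) and the cell cycle inhibitor CDKN1A at 0.37 (SE 0.12, adjusted p = 0.18 in edgeR). In PLK2(D223N) vs Vector the medians were -0.02 for cofactors, 0.04 for Polycomb, 0.04 for trithorax and MLL, and 0.07 for CTCF and cohesin. They were 0.03 for retinoic acid and CDX, 0.04 for HOX-linked homeobox, 0.03 for flanking and 0.10 for target genes. The embryonic kidney markers summed to 90.4 to 97.9 TPM in Vector, 93.3 to 99.6 TPM in PLK2(D223N) and 82.8 to 91.2 TPM in PLK2 libraries (10 genes). Of the neuronal markers, 4 were tested and 4 were above 0 with PLK2, with a median of 0.20 and none called (SYT1 at 0.38, SE 0.13, adjusted p = 0.194 in edgeR). Of all genes, 51.1% were below 0. NEFL (0.007, SE 0.21) and TUBB3 (0.017, SE 0.16) were near 0, and RBFOX3, at 0.35 TPM in Vector, was at 0.56 (SE 0.30). With PLK2(D223N), 3 of these 4 were above 0 against Vector, with a median of 0.17 and SYT1 at 0.27 (SE 0.13). The part of these markers in the HOX result was not tested.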

How the data were processed

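Polyadenylated RNA of 9 HEK293T cultures was sequenced, per the labels' protocols. The submitters' processing notes name Bowtie2, RSEM 1.3.1, DESeq2 1.4.5 and build GRCh38.p13. For strand, annotation and the role of each tool, the setting is not given in the sources used here. Estimated counts per gene and TPM were deposited by the authors, per the file headers. A further 18 per-library columns were not used. HOXB1 and the noncoding RNAs of the clusters were not analysed here.

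The deposited TPM values were averaged over the Vector libraries. The estimated counts were rounded, filtered by filterByExpr (12924 genes left), scaled by TMM and fitted in edgeR 4.0.16 (glmQLFit and glmQLFTest, robust) on all 9 libraries with the group as the only term. Two-sided p-values were adjusted over all genes tested (Benjamini-Hochberg), with calls below 0.05. Groups came from the labels. Tests were checked on simulated counts drawn from the fitted means and spread. These had no outlying library and no trend with GC content, so the check does not cover those features. Sequences and start sites came from RefSeq (GRCh38.p14), and gene spans, GC content and length from GENCODE release 29.

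HOX members and gene lists were chosen with earlier results of these data known. Named members are those called in any comparison, the 3 highest in TPM of each cluster in Vector and the 4 with the smallest p in each comparison. A named result of 1 member is not reported here. From each list the 2 genes with the smallest p in PLK2 vs Vector are named. Alternatives were DESeq2 1.42.0 size factors and Wald test, no filter, a stricter filter (10 counts in each library of a group, mean of 1 CPM), a replicate term, the 6 libraries compared, PLK2 removed before scaling, GC and length trends removed (loess, span 0.3, for 12841 genes with both values), limma 3.58.1 on log2(TPM + 1) and each library left out. R 4.3.3 was used.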

Additional observations from a re-analysis of the deposited data

How the results depend on the processing

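Of the HOX members called in PLK2 vs Vector, 1 with all 9 libraries, the DESeq2 Wald test gave 2, the fit to the 6 libraries compared 0, and the removal of GC and length trends 6, also with the replicate block. Leaving out single libraries gave 0 to 8, with 5 without Vector replicate 1, 8 without Vector replicate 2 and 0 without each PLK2 library. Over all genes tested, 4 were called lower with all 9 libraries, 12 by the Wald test and 0 in the 6 libraries compared. With GC and length trends removed it was 109 genes, or 74 with the block. Without Vector replicate 1 it was 52, without Vector replicate 2 it was 451, and without each PLK2 library 0. In PLK2 vs PLK2(D223N), again 1 with all libraries, the Wald test gave 2, no filter 2, the replicate block 0, the 6 libraries compared 7, and the removal of GC and length trends 2, also with the block. Leaving out single libraries gave 0 to 7, with 7 without Vector replicate 1 and 2 without Vector replicate 2. Of all genes, 1 was called lower with all libraries, 4 by the Wald test, 3 with no filter and 0 with the block. It was 128 genes in the 6 libraries compared and 9 with trends removed (7 with the block). Without Vector replicate 1 it was 68, without Vector replicate 2 it was 6, and without any other single library 0. PLK2(D223N) vs Vector stayed at 0 in all 19 alternatives. Fits without a library of the compared groups have fewer samples, and the cause of the other shifts was not tested.

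The median change in PLK2 vs Vector (-0.161) was -0.109 with GC and length trends removed and -0.11 with the replicate block added. In both of these fits the median of all genes was -0.021. Without single libraries the HOX median was -0.185 to -0.142. In PLK2 vs PLK2(D223N) (-0.18) it was -0.2 to -0.131 without single libraries, the last without PLK2(D223N) replicate 1. In PLK2(D223N) vs Vector (-0.026) it was 0.025 by limma on TPM, where the median of all genes was 0.054, and -0.054 to 0.015 without single libraries. In CPM in place of TPM, the shares of HOXA, HOXB, HOXC and HOXD in Vector were 48.12%, 21.15%, 9.18% and 21.55%.

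Among the 15 named members, estimates near 0 and not called turned direction in 12 cases, over 6 of the alternatives. By limma on TPM, HOXA13 (0.025) and HOXD11 (0.027) turned in PLK2(D223N) vs Vector. The others turned on 1 left-out library, where HOXC9 ran from -0.16 to 0.024 in PLK2 vs Vector. In PLK2(D223N) vs Vector these ranges were -0.093 to 0.003 for HOXA9, -0.187 to 0.006 for HOXB7, -0.014 to 0.147 for HOXC10, -0.048 to 0.104 for HOXC6, -0.056 to 0.128 for HOXC9 and -0.095 to 0.043 for HOXD11. HOXA9 and HOXB6 kept their direction in PLK2 vs Vector and in PLK2 vs PLK2(D223N) in all 19 alternatives.

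The replicate numbers did not pair the samples, since 1 of 9 correlations between same-numbered libraries was over 0.1 (range -0.107 to 0.126). With the replicate block HOXA9 was at an adjusted p of 0.01 in PLK2 vs Vector and HOXB6 at 0.0854 in PLK2 vs PLK2(D223N), by edgeR. Depth limits the lowest members most.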
